A study of Mus musculus with 28 samples.

Results

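The miR-29 family was followed through 5 of the 569 miRNA rows of the deposited table. These were the 3p rows mmu-miR-29a-3p, mmu-miR-29b-3p and mmu-miR-29c-3p and the 5p rows mmu-miR-29b-1-5p and mmu-miR-29c-5p, written below without the species prefix. They were chosen by name, and all 5 were matched to the RefSeq miRNA table. All 5 held values in cartilage (5 of 438 rows), but only the 3 rows of 3p arms did so in subchondral bone (3 of 490 rows), so 3p and 5p arms could be compared in cartilage alone.

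The samples came from the medial tibial plateau of male C57BL6 mice, 10 to 12 weeks old at surgery, with tissue cut out by laser under a microscope. The surgery protocol in the labels also names Jaffa mice beside wild type C57BL6. No array is labelled Jaffa. The titles of all bone arrays begin with WT, and those of the cartilage arrays give no genotype. Both knees of a mouse had either destabilization of the medial meniscus (DMM), in which the medial menisco-tibial ligament is cut and osteoarthritis follows, or a sham operation that showed the ligament without cutting it. The sham mice thus share the opening of the joint and the saline flush, and no unoperated mice were analysed here. Tissue was taken 1 or 6 weeks later and measured on 28 Agilent mouse miRNA arrays in 8 groups. In cartilage every group had 3 arrays of RNA pooled from 3 mice apiece (4 groups), and in bone every group had 4 single mice (4 groups).

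A miRNA hairpin is cut into a duplex, and 1 of its strands, the guide, is usually kept in the silencing complex while the other, the passenger, is mostly lost. For miR-29 the 3p strand is the guide. The family is known for repressing mRNAs of collagens and other matrix proteins, is lowered by TGF-beta in fibrosis of several organs, and has been linked to Wnt, NF-kappaB and SMAD signalling in cartilage cells. The passenger strands have other seeds and therefore other predicted targets.

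The mature strands are shown because the seed (bases 2 to 8, in capitals), by which a miRNA recognises its targets, separates the 3p from the 5p rows. They are written 5′ to 3′ from RefSeq on GRCm38.p6.
miR-29a-3p: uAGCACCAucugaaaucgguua
miR-29b-3p: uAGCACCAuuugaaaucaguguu
miR-29c-3p: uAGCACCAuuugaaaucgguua
miR-29c-5p: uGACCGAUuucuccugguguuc
miR-29b-1-5p: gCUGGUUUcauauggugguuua
The seed AGCACCA was held by 3 of the 1679 mature names in the RefSeq table, which were the 3 guide strands. The seed of each 5p strand belonged to 1 name only. Between miR-29a-3p and miR-29c-3p the only difference was C10U, counted from 1 at the 5′ end with the base of miR-29a-3p first. Between miR-29a-3p and miR-29b-3p the first 22 bases differed by C10U, G18A, U21G and A22U. miR-29b-3p holds the hexamer AGUGUU from base 18, which in human cells is known as a nuclear import element of miR-29b. It was searched on the given strand only and was present in 12 of the 1679 names (0.715%).

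The 4 hairpins lie in 2 pairs. Mir29a and Mir29b-1 are on the minus strand of chromosome 6, with 275 bases between them, and Mir29b-2 and Mir29c are on the plus strand of chromosome 1, with 426 bases between them. miR-29a-3p comes from chr6:31062673-31062694 and miR-29c-3p from chr1:195037600-195037621. miR-29b-3p is cut from both Mir29b-1 (chr6:31063025-31063047) and Mir29b-2 (chr1:195037091-195037113) with the same sequence, so its row cannot tell the loci apart. miR-29b-1-5p (chr6:31063067-31063088) and miR-29c-5p (chr1:195037562-195037583) each belong to 1 locus, as do miR-29a-3p and miR-29c-3p. Only the miR-29b-3p row is of mixed origin. The hairpins with both arms measured are given with the arms in capitals, the 5p arm first.
Mir29c: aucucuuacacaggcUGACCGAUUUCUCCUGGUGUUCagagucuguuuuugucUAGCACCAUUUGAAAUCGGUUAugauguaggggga
Mir29b-1: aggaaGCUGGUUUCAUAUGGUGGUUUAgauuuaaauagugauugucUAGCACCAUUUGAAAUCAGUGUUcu

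All values are log2 signals as deposited. One label field of the cartilage samples names bone while their source field names cartilage. miR-140-3p, abundant in cartilage, averaged 13.41 ± 0.19 (SD, n = 12) on the arrays with cartilage as source and 9.34 ± 0.33 (SD, n = 16) on the others, and the source field was followed. Leukocyte miR-223-3p averaged 7.59 ± 0.65 (SD, n = 12) and 12.80 ± 0.53 (SD, n = 16) in the same order. The median of an array was 6.17 to 6.39 in bone and 6.26 to 6.32 in cartilage. Scanner background was not used here, so the spread between arrays and their number set the precision. On 1 bone array, that of mouse 96 (sham, 1 week), all 3 guide strands were higher than on any other bone array. The bone comparisons at 1 week and between weeks, the levels and the likeness to other rows are given with and without this array. It was picked out by these values themselves. A Dixon test for an outlying value, run on each guide strand in each bone group (12 in all), flagged no array. These are bulk samples, in which fewer cells of a type and less RNA per cell cannot be told apart.

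In cartilage all 5 rows had their highest group mean in sham mice at 6 weeks and their lowest in DMM mice at 1 week. The guide strand miR-29a-3p read 12.28, 12.21 and 12.52 in sham replicates 1 to 3 at 1 week and 12.40, 12.08 and 12.07 in DMM replicates. At 6 weeks it read 12.68, 12.55 and 12.51 after sham surgery and 12.26, 12.37 and 12.27 after DMM. The operations overlapped at 1 week and not at 6 weeks, when all DMM pools were lower.

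miR-29b-3p read 8.72, 8.73 and 8.94 in sham replicates 1 to 3 at 1 week and 8.87, 8.55 and 8.62 in DMM replicates. At 6 weeks the values were 9.38, 9.06 and 9.42 after sham surgery and 9.14, 9.17 and 8.96 after DMM. The weeks were apart in both operations, and the operations overlapped at both weeks.

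miR-29c-3p read 10.19, 10.14 and 10.36 in sham replicates 1 to 3 at 1 week and 10.15, 9.92 and 9.92 in DMM replicates. At 6 weeks it read 10.69, 10.63 and 10.47 after sham surgery and 10.41, 10.51 and 10.35 after DMM. As for miR-29b-3p, every 6-week pool was above every 1-week pool of the same operation, and the operations overlapped.

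The passenger strand miR-29c-5p read 5.83, 5.83 and 6.06 in sham replicates 1 to 3 at 1 week and 5.50, 5.52 and 5.59 in DMM replicates. At 6 weeks the values were 5.98, 6.13 and 6.10 after sham surgery and 5.94, 5.75 and 5.95 after DMM. It was the only row of the family whose DMM pools lay below all sham pools of the same week at both weeks, as did 12.8% of the 438 cartilage rows.

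The other passenger strand, miR-29b-1-5p, read 5.69, 5.92 and 6.01 in sham replicates 1 to 3 at 1 week and 5.45, 5.59 and 5.53 in DMM replicates. At 6 weeks it read 6.04, 6.03 and 6.25 after sham surgery and 5.85, 5.76 and 6.08 after DMM. Its DMM pools lay below all sham pools at 1 week, while the operations overlapped at 6 weeks. Both 5p rows lay at or under the array medians, between 5.45 and 6.25, and the lowest values on the cartilage arrays were 4.72 to 5.13. How far the 5p rows stood above background was not measured here. Probes differ in brightness, so no row's level was set against another row's.

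In the order of group means, most neighbouring groups overlapped. Among guide strands the only exception was miR-29b-3p, with DMM at 6 weeks over sham at 1 week (means 9.09 and 8.80). Its nearest values there were 8.96 and 8.94, so these groups were barely apart. How many of all rows had such exceptions was not counted. For both 5p rows the exception was the step down to DMM at 1 week. That step went from DMM at 6 weeks for miR-29c-5p (5.88 to 5.54) and from sham at 1 week for miR-29b-1-5p (5.87 to 5.53).

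**Figure D1:**
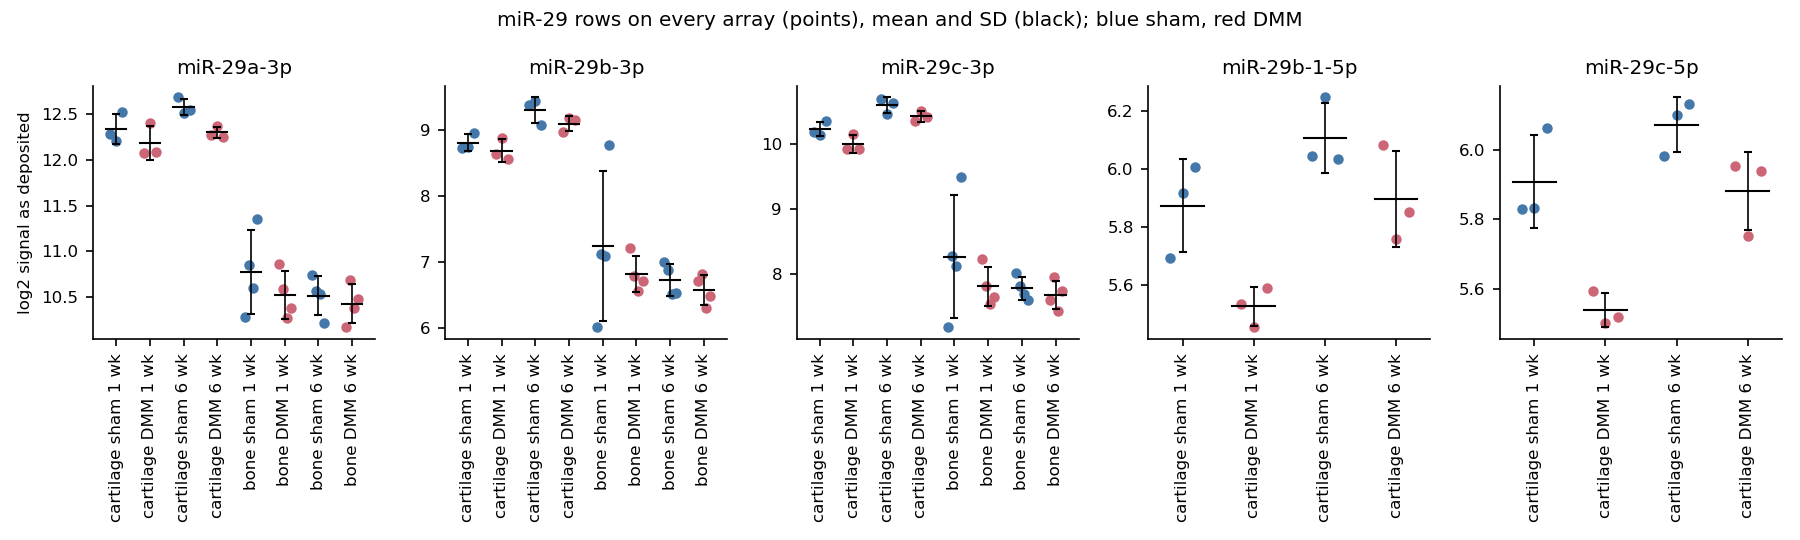
Log2 signal (y axis, its own scale in each panel) of the 5 miR-29 rows by group (x axis), with 1 point per array, blue for sham, red for DMM, and the mean and SD in black. In cartilage every row is highest in sham at 6 weeks and lowest in DMM at 1 week, and in bone the array of mouse 96 is the highest point of each 3p panel.

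The first question was whether DMM changed the family in cartilage. At 1 week both passenger strands fell and no guide strand passed the test. miR-29c-5p averaged 5.91 ± 0.13 (SD, n = 3) after sham surgery and 5.54 ± 0.05 (SD, n = 3) after DMM, a log2 difference of -0.37 ± 0.10 (SE), or 1.29-fold lower, with a limma adjusted p of 0.0188. miR-29b-1-5p averaged 5.87 ± 0.16 and 5.53 ± 0.07 (SD, n = 3 each), a difference of -0.35 ± 0.12 (SE), or 1.27-fold lower (adjusted p = 0.049). So 2 of 5 rows were called lower, where 12.1% of all 438 rows were called lower and 27.9% were called in either direction. Both also had DMM pools below every sham pool, which held for 23.3% of all rows.

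Both calls depended on single pools. miR-29c-5p lost its call without DMM replicate 2 (adjusted p = 0.0511), DMM replicate 3 (0.0524) or sham replicate 3 (0.0841), all of 1 week. miR-29b-1-5p lost its call in 8 of the 12 fits that left out 1 cartilage pool: any DMM pool of 1 week, sham replicate 2 or 3 of 1 week, DMM replicate 1 or 2 of 6 weeks, or sham replicate 2 of 6 weeks. Its adjusted p without one of these pools ran from 0.0503 to 0.175.

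The guide strands were also lower in mean after DMM at 1 week, within the spread of the pools. miR-29c-3p differed by -0.23 ± 0.11 (SE), with a 95% interval of -0.47 to 0.01 and an adjusted p of 0.127. Under quantile normalization its difference was -0.42 (adjusted p = 0.00595), while miR-29b-1-5p missed the threshold there (adjusted p = 0.0598). For miR-29a-3p the difference was -0.15 (95% interval -0.41 to 0.11, adjusted p = 0.379) and for miR-29b-3p it was -0.12 (-0.40 to 0.16, adjusted p = 0.547). The median difference was -0.23 over the 5 rows and -0.02 over all 438 rows.

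At 6 weeks none of the 5 rows was called after DMM, against 16.9% of all rows (7.31% lower). An unadjusted limma p under 0.05 was found for 167 of all 438 rows and for 1 of the 5. This was miR-29a-3p, with 12.58 ± 0.09 after sham surgery and 12.30 ± 0.06 after DMM (SD, n = 3 each), a difference of -0.28 (95% interval -0.54 to -0.02, adjusted p = 0.105). The other 4 differences ran from -0.17 for miR-29c-3p to -0.21 for miR-29b-1-5p. miR-29a-3p and miR-29c-5p had DMM pools below every sham pool, as did 18% of all rows. The change of the DMM effect between weeks ran from -0.13 for miR-29a-3p to 0.18 for miR-29c-5p, and none was called (adjusted p = 0.999). For this change limma called 0 of 438 rows, and 13 had an unadjusted p under 0.05.

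A comparison added after the values were seen averaged the DMM effect over both weeks. It uses the same arrays as the comparisons by week and is no separate evidence. miR-29c-5p differed by -0.28 ± 0.07 (SE, adjusted p = 0.00754), miR-29b-1-5p by -0.28 ± 0.08 (adjusted p = 0.0166) and miR-29c-3p by -0.20 ± 0.08 (adjusted p = 0.0475). miR-29a-3p (-0.22, adjusted p = 0.0536) and miR-29b-3p (-0.16, adjusted p = 0.181) missed the threshold. Of all rows 45.2% were called here (24% lower). Both 5p rows kept this call in all 12 fits that left out 1 pool. miR-29c-3p kept it in 3, those without sham replicate 2 or DMM replicate 1 of 1 week or sham replicate 3 of 6 weeks, and had an adjusted p of 0.0521 to 0.115 without any other pool. It also lost the call under the trend and robust prior (adjusted p = 0.0571), with dim rows left out (0.0569) and with the replicate block (0.0821). miR-29a-3p was called without sham replicate 2 (adjusted p = 0.0431) or DMM replicate 1 (0.0161) of 1 week. It was also called under 75th percentile centring (adjusted p = 0.0221), the trend and robust prior (0.0454) and array weights (0.0317).

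**Figure D2:**
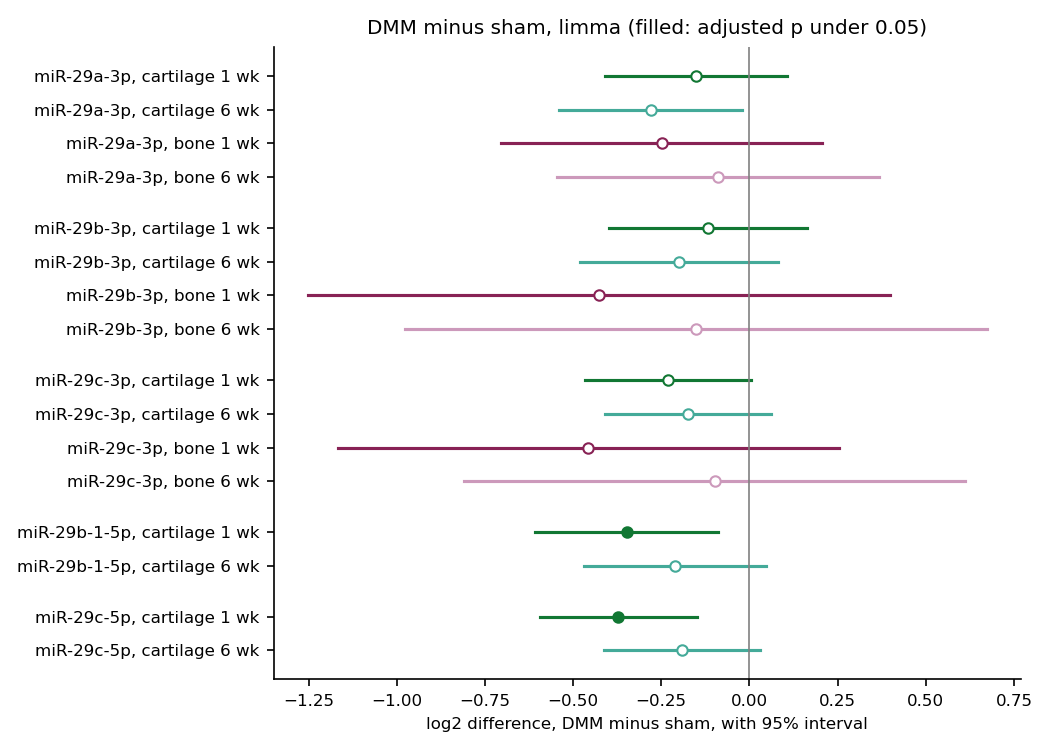
Log2 difference DMM minus sham (x axis) with its 95% limma interval for each miR-29 row (y axis), by tissue and week, with filled points for an adjusted p under 0.05. All 16 points lie below 0, and only the points of both 5p rows in cartilage at 1 week are filled.

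Other miRNAs moved with the operation in the same cartilage arrays. Among the cartilage miRNAs 1 of 4 fell at 1 week, miR-455-5p (-0.40, adjusted p = 0.0457), where 12.1% of all rows were called lower, and none was called at 6 weeks. The list's summed signal on the log2 scale was 13.94 to 14.22 in sham pools and 13.69 to 14.03 in DMM pools at 1 week, and 13.99 to 14.06 and 13.61 to 13.85 at 6 weeks. Of the muscle miRNAs 1 of 4, miR-206-3p, rose at both weeks (0.53 each, adjusted p = 0.0107 and 0.0166), where 15.8% of all rows were called higher at 1 week and 9.59% at 6 weeks. At 1 week the other 3 had differences of -0.73 to -0.97 that were not called. The summed muscle signal was 7.76 to 8.82 in sham and 7.51 to 7.82 in DMM pools.

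At 6 weeks both measured erythroid miRNAs fell after DMM, miR-451a by -1.34 (adjusted p = 0.0465) and miR-486a-5p by -0.50 (adjusted p = 0.0283). So did 2 of 3 measured leukocyte miRNAs, miR-223-3p (-1.19, adjusted p = 0.0465) and miR-342-3p (-0.57, adjusted p = 0.0172). Of all rows 7.31% were called lower at 6 weeks. The summed erythroid signal was 8.50 to 10.18 in sham and 7.75 to 8.55 in DMM pools at 6 weeks, and the leukocyte signal 8.64 to 9.79 and 8.00 to 8.52. At 1 week none of these 5 was called. The single measured endothelial miRNA and the 3 measured mesenchymal miRNAs were not called at either week. The part of these cells' RNA in the miR-29 values was not tested.

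A score of each array on the main direction of spread of all bone arrays around their group means also moved with DMM. This direction held 62.3% of the variance around the group means. It was taken over the rows shared by both tissues, which include the miR-29 guide strands. In cartilage at 1 week the score was -1.53 to -0.87 in sham pools and 2.65 to 4.15 in DMM pools, so the groups did not overlap. At 6 weeks it was -3.19 to -2.26 in sham pools and -1.51 to 1.80 in DMM pools, again without overlap. With this score as a covariate, an alternative added after the values were seen, no row of the cartilage table was called at either week or in their mean. The 1-week differences were then -0.35 for miR-29c-5p (adjusted p = 0.743) and -0.09 for miR-29b-1-5p (adjusted p = 0.887). At both weeks the score and the operation cannot be told apart.

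Whether the arms of a hairpin responded unequally was tested on the 3p minus 5p difference within each array, fitted over all 43 arm pairs of the cartilage table. The level of such a difference depends on the probes, and only its change is read. For Mir29c it averaged 4.32 ± 0.03 in sham and 4.46 ± 0.17 in DMM pools at 1 week (SD, n = 3 each). The DMM effect on it was 0.14 ± 0.14 (SE), with a 95% interval of -0.16 to 0.44 and an adjusted p of 0.588. For miR-29b-3p against miR-29b-1-5p it averaged 2.93 ± 0.11 and 3.16 ± 0.24, an effect of 0.23 ± 0.16 (SE, 95% interval -0.13 to 0.59, adjusted p = 0.363). The guide of the second pair also holds miR-29b-3p from Mir29b-2.

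At 6 weeks the arm effects were 0.02 (95% interval -0.29 to 0.32) for Mir29c and 0.01 (-0.34 to 0.37) for the miR-29b pair. None of these was called, against 30.2% of the 43 arm pairs at each week. Averaged over weeks they were 0.08 for Mir29c and 0.12 for the miR-29b pair (adjusted p = 0.587 and 0.489), with 41.9% of arm pairs called. The larger fall of the 5p rows at 1 week was therefore not shown to differ from that of the 3p rows, nor were the arms shown to move alike. Over all named arms outside the family in the cartilage table, the median DMM difference at 1 week was -0.01 for 209 rows of 5p arms and -0.11 for 136 rows of 3p arms.

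Among the rows of the family, those of the same arm were more alike within groups than those of different arms. Over all 12 cartilage arrays the Pearson r was 0.79 to 0.89 among the guide strands (Spearman 0.67 to 0.90). It was 0.92 between both 5p strands (Spearman 0.90) and 0.60 to 0.78 between a guide and a 5p strand. Without the 2 arrays farthest out, these were 0.66 to 0.92, 0.88 and 0.48 to 0.62. After the group means were taken away, r was 0.93 between miR-29a-3p and miR-29c-3p, which come from different chromosomes. It was 0.63 between both 5p strands, also of different loci, and -0.39 to 0.03 across arms. Between both arms of Mir29c it was -0.06. miR-29a-3p and miR-29c-3p differ by 1 base, and how far the probe of 1 guide strand also reads the others was not tested. Rows outside the family reached such values too. On deviations from group means r was 0.93 between miR-34b-5p and miR-29b-3p. It was 0.67 between miR-374c-5p and miR-29c-5p, which was rank 17 among the rows outside the family. The points share arrays and their scaling, and with 12 arrays in 4 groups these values are descriptions with no test.

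**Figure D3:**
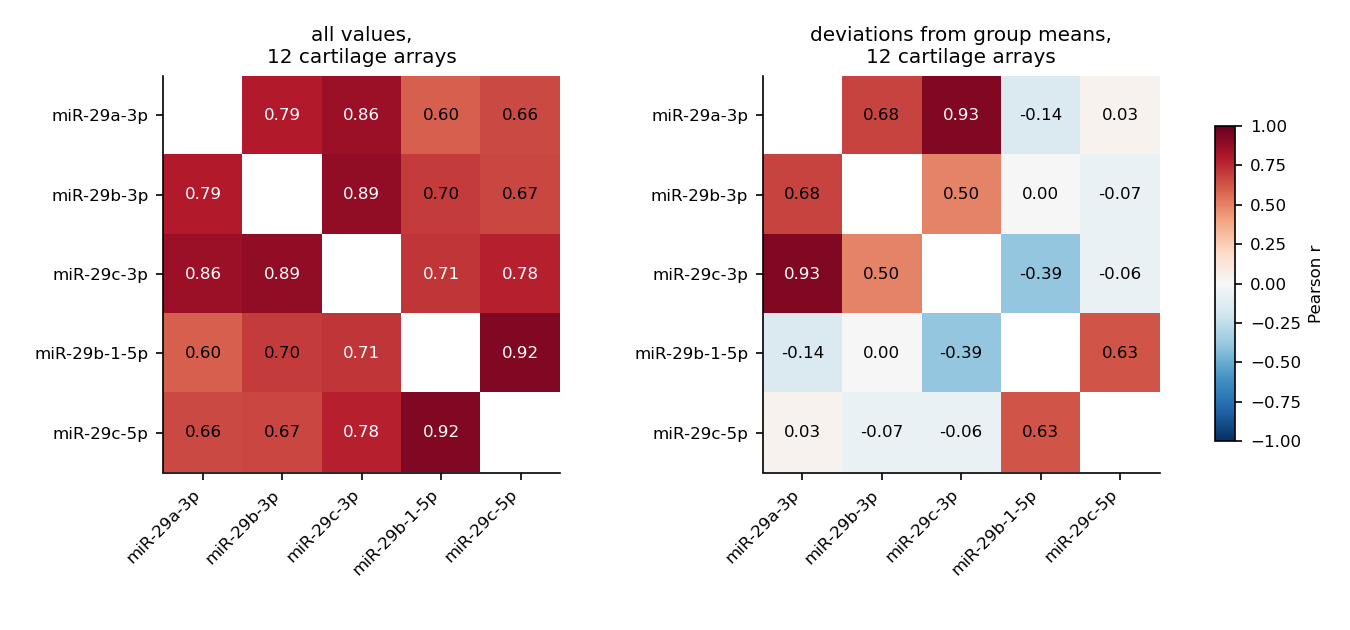
Pearson r between miR-29 rows over the 12 cartilage arrays, on all values (left) and on deviations from group means (right), with the colour scale from -1 to 1. On deviations, guide strands track guide strands (0.50 to 0.93) and the 5p strands track each other (0.63), while values across arms lie between -0.39 and 0.03.

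The second question was how the family differed between weeks. In sham cartilage none of the 5 rows passed the threshold between 1 and 6 weeks, against 0.228% of all rows (1 of 438). An unadjusted limma p under 0.05 was found for 77 of all 438 rows and for 2 of the 5. miR-29b-3p averaged 8.80 ± 0.13 at 1 week and 9.29 ± 0.20 at 6 weeks (SD, n = 3 each), a difference of 0.49 (95% interval 0.21 to 0.77, adjusted p = 0.109). miR-29c-3p averaged 10.23 ± 0.11 and 10.60 ± 0.12, a difference of 0.37 (0.13 to 0.60, adjusted p = 0.151). The remaining 3 differences were 0.16 to 0.24.

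In DMM cartilage, a comparison added after the values were seen, miR-29c-3p rose from 10.00 ± 0.13 at 1 week to 10.42 ± 0.08 at 6 weeks (SD, n = 3 each). The difference was 0.42 ± 0.11 (SE, adjusted p = 0.0455), and 4.79% of all rows were called (2.28% higher). The call was lost in 9 of the 12 fits without 1 pool. These were the fits without any DMM pool of 6 weeks, DMM replicate 2 or 3 of 1 week, any sham pool of 1 week, or sham replicate 2 of 6 weeks (adjusted p from 0.053 to 0.153). The differences were 0.41 for miR-29b-3p, 0.37 for miR-29b-1-5p and 0.34 for miR-29c-5p (adjusted p = 0.0842, 0.0842 and 0.0769), and 0.11 for miR-29a-3p.

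With both operations averaged, also added after the values were seen, 4 of 5 rows rose by 6 weeks, where 9.82% of all rows were called higher and 17.6% in either direction. miR-29b-3p was higher by 0.45 ± 0.09 (SE), or 1.36-fold (adjusted p = 0.00929), and miR-29c-3p by 0.39 ± 0.08, or 1.31-fold (adjusted p = 0.00748). Both kept the call in all 12 fits that left out 1 pool. miR-29b-1-5p was higher by 0.30 ± 0.08 (adjusted p = 0.0271) and miR-29c-5p by 0.25 ± 0.07 (adjusted p = 0.0292). These calls were lost in 6 and 9 of the 12 such fits. Both were lost without sham replicate 1 or 2, or DMM replicate 1 or 3, of 1 week, or sham replicate 3 or DMM replicate 3 of 6 weeks. That of miR-29c-5p was also lost without DMM replicate 2 of 1 week, sham replicate 2 or DMM replicate 1 of 6 weeks. Without a pool, the adjusted p of the lost calls was 0.0501 to 0.0837. miR-29a-3p differed by 0.18 (adjusted p = 0.169).

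In both operations miR-29b-3p, miR-29c-3p and miR-29b-1-5p had every 6-week pool above every 1-week pool, as did 6.85% of all rows. The 3p minus 5p difference changed between weeks by 0.14 for each pair (adjusted p = 0.515 for Mir29c and 0.599 for the miR-29b pair), against 4.65% of arm pairs called. Of the 2 measured erythroid miRNAs 1 rose between weeks in the mean of both operations, where 9.82% of all rows were called higher. This was miR-451a (1.00, adjusted p = 0.0354), while miR-486a-5p was not called (0.23, adjusted p = 0.118). The summed erythroid signal was 7.41 to 8.27 in sham pools at 1 week and 8.50 to 10.18 at 6 weeks. In DMM pools the weeks overlapped, at 7.58 to 7.99 and 7.75 to 8.55. None of the 4 cartilage miRNAs was called between weeks. The score described above, on the main direction of spread among bone arrays, was also lower at 6 weeks than at 1 week without overlap, in sham and in DMM pools. With it as a covariate no row of the cartilage table was called between weeks, in sham, in DMM or in their mean. The mean differences were then 0.47 for miR-29b-3p and 0.42 for miR-29c-3p (adjusted p = 0.341 each), 0.24 for miR-29c-5p (0.56) and 0.17 for miR-29b-1-5p (0.73). In these pools the score and the week cannot be told apart. Mice at 6 weeks were also older and farther from surgery, which cannot be told apart here.

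**Figure D4:**
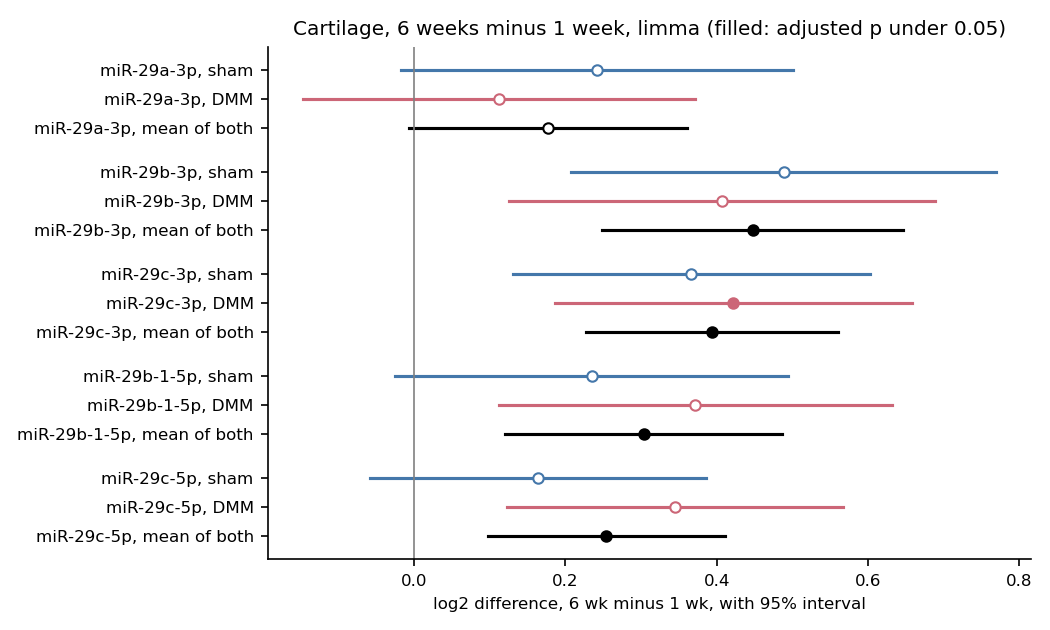
Log2 difference in cartilage, 6 weeks minus 1 week (x axis), with its 95% limma interval for each miR-29 row in sham mice (blue), DMM mice (red) and their mean (black), with filled points for an adjusted p under 0.05. All points lie above 0, and miR-29b-3p and miR-29c-3p have the largest mean rises, 0.45 and 0.39.

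Other miRNAs tied to fibrosis, listed with earlier results of these data known, were set beside the family. Of 15 miRNAs known as lowered in fibrosis or opposing it, 10 were measured in cartilage. At 1 week after DMM 3 of these 10 fell and none rose, where 12.1% of all rows were called lower, with a list median of -0.34 against -0.02 over all rows. They were miR-30c-5p (-0.54, adjusted p = 0.0142), miR-30e-5p (-0.37, adjusted p = 0.0337) and miR-26b-5p (-0.34, adjusted p = 0.0253). Several of the 10 are close relatives within the miR-30 or miR-26 family, so the 10 rows are not independent. Whether the list as a whole changed was not tested. The miR-30 family is known to repress CTGF in heart, and miR-26 to oppose fibrosis in lung and heart.

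At 6 weeks miR-26b-5p was the 1 of 10 that fell (-0.44, adjusted p = 0.013), where 7.31% of all rows were called lower. Between weeks 4 of the 10 rose, where 9.82% of all rows were called higher, with a list median of 0.27 against -0.03 over all rows. These were miR-101a-3p (0.38, adjusted p = 0.0145), miR-30c-5p (0.36, adjusted p = 0.0253), miR-30a-5p (0.31, adjusted p = 0.0264) and miR-30e-5p (0.31, adjusted p = 0.0242). All but miR-101a-3p are of the miR-30 family. miR-101a-3p, miR-30a-5p and miR-30e-5p are also among the rows named below as most similar to guide strands. Of the 5 miRNAs known as raised in fibrosis, none was called after DMM at either week. Between weeks 1 of the 5 rose, miR-155-5p (0.34, adjusted p = 0.00748), named after its value was seen, where 9.82% of all rows were called higher.

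In subchondral bone DMM gave no called change of a guide strand. miR-29c-3p read 7.18, 8.28, 8.12 and 9.48 in the sham mice of 1 week (68, 66, 86 and 96) and 8.23, 7.82, 7.54 and 7.64 in the DMM mice (67, 77, 85 and 93). At 6 weeks it read 8.01, 7.81, 7.69 and 7.61 in sham mice 10, 12, 22 and 26 and 7.60, 7.95, 7.43 and 7.73 in DMM mice 5, 6, 21 and 25. The sham mice of 1 week held both the lowest and the highest bone value, and all groups overlapped.

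miR-29b-3p read 6.01, 7.11, 7.08 and 8.76 in those sham mice of 1 week and 7.20, 6.78, 6.56 and 6.71 in the DMM mice. At 6 weeks it lay between 6.51 and 6.99 after sham surgery and between 6.31 and 6.81 after DMM. miR-29a-3p read 10.28, 10.85, 10.60 and 11.36 in the sham mice of 1 week and 10.86, 10.58, 10.27 and 10.38 in the DMM mice. At 6 weeks its range was 10.22 to 10.74 and 10.17 to 10.69. For both rows mouse 96 was highest and mouse 68 the lowest of its group, and no pair of groups was apart.

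The difference DMM minus sham at 1 week was -0.46 ± 0.33 (SE) for miR-29c-3p, -0.43 ± 0.39 for miR-29b-3p and -0.25 ± 0.21 for miR-29a-3p (adjusted p = 0.999 each). Centring on the 75th percentile shifted every bone row by 0.14 here, and all 3 differences stayed negative. Limma called 0 of 490 rows (0%) and 3 had an unadjusted p under 0.05, none of them of the family. Without mouse 96 the sham means were 7.86 ± 0.59, 6.73 ± 0.63 and 10.58 ± 0.29 (SD, n = 3), and the differences became -0.05, 0.08 and -0.05. Without mouse 68, the lowest of that sham group, they became -0.82, -0.84 and -0.41 (adjusted p = 0.738 each). Array weights, which give discordant arrays less influence, gave -0.64 for miR-29c-3p (adjusted p = 0.0336), the 1 call among 22 alternatives for that row. At 6 weeks the differences were -0.10, -0.15 and -0.09 (adjusted p = 0.998), with 95% intervals as wide as -0.98 to 0.67 for miR-29b-3p. Limma called 0 of 490 rows there too, with 2 at an unadjusted p under 0.05.

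Between weeks the bone values went the other way from cartilage in mean. In sham mice 6 weeks minus 1 week was -0.49 for miR-29c-3p, -0.51 for miR-29b-3p and -0.26 for miR-29a-3p (adjusted p = 0.475, 0.524 and 0.567), and without mouse 96 these were -0.08, -0.01 and -0.06. Without mouse 68 they were -0.85, -0.93 and -0.42, also not called. With both operations averaged they were -0.31, -0.38 and -0.18 (adjusted p = 0.377, 0.359 and 0.431, with 7.55% of all rows called), and without mouse 96 -0.10, -0.12 and -0.08. Without mouse 68 they were -0.49, -0.58 and -0.26 (adjusted p = 0.0548, 0.0548 and 0.164). The difference of this week effect between tissues, cartilage minus bone, was 0.82 ± 0.35 (SE) for miR-29b-3p, 0.70 ± 0.29 for miR-29c-3p and 0.35 ± 0.19 for miR-29a-3p (adjusted p = 0.105, 0.105 and 0.209). Limma called 0 of 359 shared rows, with 121 at an unadjusted p under 0.05, miR-29b-3p and miR-29c-3p among them. Without mouse 68 both were called (adjusted p = 0.0127 and 0.0123), and without mouse 96 the differences were 0.57 for miR-29b-3p, 0.50 for miR-29c-3p and 0.26 for miR-29a-3p, none of them called.

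The DMM effect was not shown to differ between tissues either. Cartilage minus bone was 0.10 to 0.31 for the guide strands at 1 week and -0.19 to -0.05 at 6 weeks, and none was called, against 0.279% and 0.557% of 359 rows. At 1 week the signs turned without mouse 96 (-0.20 to -0.10), and without mouse 68 the values were 0.26 to 0.72. In level, miR-29a-3p averaged 12.35 ± 0.19 in cartilage (SD, n = 12) and 10.56 ± 0.30 in bone (SD, n = 16). miR-29b-3p averaged 8.96 ± 0.28 and 6.84 ± 0.60, and miR-29c-3p 10.31 ± 0.25 and 7.88 ± 0.52. The tissues did not overlap for miR-29a-3p and miR-29c-3p, and for miR-29b-3p the lowest cartilage value was 0.22 below that of mouse 96. Without mouse 96 the bone means were 10.51 ± 0.22, 6.71 ± 0.32 and 7.78 ± 0.30 (SD, n = 15) in the same order. None of these guide strands then overlapped between tissues. Other rows were apart as well: miR-140-3p lay at 13.12 to 13.74 in cartilage and 8.94 to 9.98 in bone. For miR-223-3p the ranges were 6.69 to 9.01 and 11.91 to 14.09. How many of all shared rows were apart was not counted, so the separation is not read as particular to the family. No source used here says whether cartilage and bone arrays were scaled jointly, so these levels were not tested.

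In bone the guide strands tracked miR-140-5p, a cartilage marker that is also among the rows named below as most similar to miR-29c-3p and miR-29a-3p. Its log2 signal was 9.76 in mouse 96, the highest of 16, and 7.51 in mouse 68, the lowest, as for miR-29c-3p. Over the 16 arrays r was 0.97 with miR-29c-3p (Spearman 0.93), 0.95 with miR-29b-3p (0.94) and 0.91 with miR-29a-3p (0.81). Without mouse 96 r was 0.93, 0.90 and 0.81. With the other strand of that hairpin, miR-140-3p, which was not picked for its likeness, r was 0.74 with miR-29c-3p, 0.70 with miR-29b-3p and 0.71 with miR-29a-3p (Spearman 0.55, 0.52 and 0.52). Without mouse 96 it was 0.65, 0.57 and 0.57, and without mouse 96 and the 2 arrays then farthest out it was 0.29, 0.23 and 0.12. The summed signal of the 3 cartilage miRNAs measured in bone was 9.54 to 10.92 in sham and 9.74 to 10.61 in DMM mice of 1 week and 9.64 to 9.94 in all mice of 6 weeks. This sum, which includes miR-140-5p, had r of 0.88 with miR-29c-3p, 0.85 with miR-29b-3p and 0.82 with miR-29a-3p (Spearman 0.70, 0.71 and 0.64). Without mouse 96 r was 0.78, 0.73 and 0.67. Rows outside the cartilage list came as close as miR-140-5p: miR-101a-3p had r of 0.97 with miR-29b-3p and 0.96 with miR-29c-3p. Mouse 96 also had the highest miR-223-3p of bone, 14.09. The points share arrays and scaling, and how much cartilage each bone sample held was not tested.

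**Figure D5:**
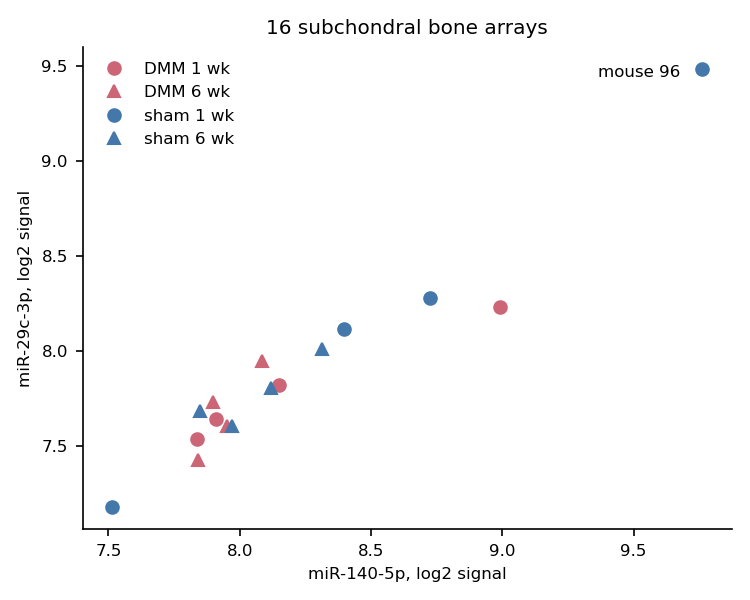
Log2 signal of miR-29c-3p (y axis) against miR-140-5p (x axis) on the 16 bone arrays, blue for sham and red for DMM, circles for 1 week and triangles for 6 weeks. Both rows are highest in mouse 96, at 9.48 and 9.76, and r is 0.97 with this array and 0.93 without it.

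The rows outside the family with the most similar pattern were taken by Pearson r over all arrays of a tissue, 3 for each miR-29 row. In cartilage (12 arrays) these were miR-30e-5p (0.91), miR-7a-5p (0.90) and miR-30a-5p (0.89) for miR-29a-3p. For miR-29b-3p they were miR-34b-5p (0.88), miR-7a-5p (0.87) and miR-106b-5p (0.87), and for miR-29c-3p miR-101a-3p (0.93), miR-30e-5p (0.89) and miR-7a-5p (0.89). miR-7a-5p was thus shared by all 3 guide strands. On deviations from group means it ranked 7 for miR-29a-3p, 10 for miR-29b-3p and 21 for miR-29c-3p among the rows outside the family.

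For the 5p strands the most similar rows were other ones. miR-29c-5p was most like miR-374c-5p (0.96), miR-30a-3p (0.95) and miR-324-3p (0.95), and miR-29b-1-5p most like miR-1839-5p (0.90), miR-324-3p (0.90) and miR-374c-5p (0.90). Among all 437 other cartilage rows, the row most like miR-29b-1-5p was miR-29c-5p, while its guide partner miR-29b-3p ranked 56. In the other direction miR-29b-1-5p ranked 11 for miR-29c-5p. For miR-29b-3p the first row was miR-29c-3p, and for miR-29c-3p miR-29b-3p ranked 3. For miR-29a-3p, miR-29c-3p ranked 8 and miR-29b-3p 19.

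In bone (16 arrays) miR-29b-3p was most like miR-101a-3p (0.97), miR-30e-5p (0.97) and miR-301a-3p (0.96). miR-29c-3p was most like miR-140-5p (0.97), miR-101a-3p (0.96) and miR-30e-5p (0.96), and miR-29a-3p most like let-7i-5p (0.92), miR-140-5p (0.91) and miR-30a-5p (0.90). miR-101a-3p and miR-30e-5p were thus named beside miR-29c-3p in both tissues. On deviations from group means they ranked only 16 and 14 for it in cartilage, and 2 and 5 in bone. Without mouse 96 the r with the rows named in bone was 0.92 to 0.95 for miR-29b-3p, 0.89 to 0.93 for miR-29c-3p and 0.81 to 0.85 for miR-29a-3p. These rows were picked for their likeness, so the values are descriptions with no test.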

How the data were processed

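Small RNA from 28 samples (70 ng each) was hybridised to 1-colour Agilent SurePrint mouse miRNA arrays, release 21. The authors deposited 1 table of log2 values, taken as log2 from their range of 4.08 to 16.74, and the submitters' processing notes name limma 3.20.9. How background was corrected, how arrays were scaled and how rows were filtered is not given in the sources used. Of all rows 438 held values in cartilage, 490 in bone and 359 in both, so the filter ran separately on each tissue. Values were used as deposited, with no pair of identical arrays within a tissue.

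Group-means models were fitted to all arrays of a tissue (all 28 over shared rows between tissues, treated as independent) with limma 3.58.1 in R 4.3.3, empirical Bayes and Benjamini-Hochberg adjustment over all rows tested. The threshold was an adjusted p of 0.05. There were 14 planned comparisons and 9 added after values were seen. Both planned arm comparisons in bone held no miR-29 pair. The fit was tested on simulated data. In cartilage a p-value reflects the spread of pools, and in bone that of single mice. Members and lists were chosen with earlier results of these data known. Named were the 5 rows, the 3 most similar rows for each, and list members past the threshold in a DMM comparison. Beside this rule, both strands of miR-140 and miR-223-3p were named to check tissue, and list members called only between weeks after their values were seen. Alternatives were centring on the 75th percentile, quantile normalization, a test without the dimmer rows (mean under the tissue's median row), eBayes with trend and robust, array weights, fewer groups, a replicate block, a score as covariate and leaving out each array. Same-numbered cartilage pools did not deviate together (r -0.49 to 0.44 over 18 pairs, 3 above 0.1), so numbers were not taken as pairs. Figures were drawn with matplotlib 3.10.9 from tables made with pandas 2.3.3 and numpy 2.4.6 in Python 3.11.15.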

Additional observations from a re-analysis of the deposited data

How the results depend on the processing

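The number of miR-29 rows called in cartilage after DMM at 1 week was 2, but 0 with dim rows left out (which removes both 5p rows) or with the score as covariate, 1 with array weights, and 0 to 2 with 1 pool left out. For both weeks averaged it was 3, and 0 with dim rows left out or the covariate, 4 under 75th percentile centring or array weights, and 2 to 4 with 1 pool left out. For DMM mice, 6 weeks minus 1 week, it was 1, and 3 under quantile normalization or 75th percentile centring, 2 with array weights, 0 with dim rows left out, with the trend and robust prior, with only the groups compared, with the replicate block or with the covariate, and 0 to 1 with 1 pool left out. With both operations averaged the week count was 4, and 2 with dim rows left out, 0 with the covariate and 2 to 4 with 1 pool left out. Array weights also raised counts from 0 to 2 for sham cartilage between weeks, 1 for bone DMM at 1 week and for both weeks averaged, 2 for bone between weeks in sham and in the mean, and 3 for the week effect, cartilage minus bone, where leaving out 1 array gave 0 to 2. For other counts of called rows no alternative changed the 0. With the replicate block, miR-29c-3p averaged over weeks (adjusted p = 0.0821) and in DMM mice between weeks (0.115), and miR-29c-5p in the week mean (0.0569), also lost their calls. The cause of these changes was not tested, apart from the removal of the 5p rows. The spread of group means in cartilage moved for miR-29c-3p from 0.60 to 0.75 (quantile) and 0.71 (75th percentile), and for miR-29c-5p from 0.54 to 0.65 (75th percentile).

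Signs turned only for differences that were not called. For the DMM effect between weeks in cartilage these were miR-29a-3p under quantile normalization (0.067), miR-29b-3p with array weights (0.032) and with 1 pool left out (-0.19 to 0.013), and miR-29c-3p with 1 pool left out (-0.0097 to 0.13). In bone, array weights turned miR-29a-3p for DMM at 6 weeks (0.070) and for DMM mice between weeks (0.037). Centring turned its DMM effect between weeks (-0.015). With 1 mouse left out, miR-29b-3p ran from -0.84 to 0.082 for DMM at 1 week. The DMM effect between weeks ran from -0.035 to 0.33 for miR-29a-3p, -0.23 to 0.69 for miR-29b-3p and -0.049 to 0.72 for miR-29c-3p. DMM mice between weeks ran from -0.18 to 0.017 (miR-29a-3p) and -0.22 to 0.012 (miR-29c-3p). For the DMM effect in cartilage minus bone at 1 week, quantile normalization gave -0.066 and -0.13 for miR-29a-3p and miR-29c-3p, and centring -0.13 and -0.0041. With 1 array left out, miR-29a-3p ran from -0.097 to 0.26, miR-29b-3p from -0.20 to 0.72 and miR-29c-3p from -0.18 to 0.59. At 6 weeks quantile normalization gave 0.073 for miR-29c-3p and array weights 0.081 for miR-29b-3p, and with 1 array left out they ran from -0.16 to 0.014 and -0.16 to 0.033. Quantile normalization turned the Mir29c arm effect of DMM at 1 week (-0.052), 6 weeks (-0.047) and in the mean (-0.050). With 1 pool left out, the 6-week arm effects ran from -0.091 to 0.11 for Mir29c and -0.099 to 0.17 for the miR-29b pair. Of the most similar rows, 0 to 2 of 3 stayed the same under Spearman correlation or on deviations from group means.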
